A study of Mus musculus with 33 samples.

Results

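Classical monocytes were chosen by the counts of 6 genes in the cells of the intracardiac libraries: each member had at least 1 unique molecular identifier (UMI, a counted mRNA molecule) of each of Vcan, Ccr2 and F13a1 and none of Cd209a, Siglech and Elane. Levels of these 6 genes are therefore no finding. Vcan encodes the matrix proteoglycan versican, Ccr2 the receptor for the chemokine Ccl2, and F13a1 the coagulation factor XIII subunit that monocytes carry. Cd209a marks monocyte-derived dendritic cells, Siglech plasmacytoid dendritic cells and Elane early granulocyte precursors. The rule found 5572 members among 55366 cells that passed the limits on quality (500 UMIs, 200 detected genes, and mitochondrial RNA up to 15%). Bone held 1356 of the members, brain 717, liver 1950 and lung 1549. The biotin-negative sort held 4754 members and the biotin-positive sort 818.

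The study applied SAMENT, a niche-tagging method in which cells near tumour cells receive a biotin tag from an overnight supply of substrate, to mice that had received an intracardiac injection. Lungs, livers, brains, and femurs with tibias (bone) were digested with collagenase and each tissue was split by sorting on the biotin tag, giving 8 groups of 4 libraries: bone, brain, liver and lung, each positive and negative. All 8 groups shared the injection and the substrate, so a negative cell is an untagged cell of a treated mouse and not a cell of an untreated one. Strain, sex, age and the injected cells are not given in the labels used here, nor is it stated that replicates came from separate animals, so p-values measure the spread between these libraries, which may be technical.

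Classical monocytes are short-lived blood cells made in the bone marrow from dividing precursors. They leave the marrow through Ccr2, circulate with high Ly6c, and enter inflamed tissue and tumours, where they can mature into macrophages or dendritic cells, while others become patrolling nonclassical monocytes in the blood. Maturing macrophages take up genes of phagocytosis, lipid handling and the complement component C1q, and lose those of the circulating monocyte.

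The label was checked on genes the rule did not use, as a description. Ms4a6c, a membrane-spanning gene of monocytes, had a UMI in 98.3% of members, against 84.3% of the 1661 cells with exactly 2 of the 3 rule genes and 8.46% of B cells. The corresponding values for Ly6c2, the classical monocyte surface antigen, were 85.6%, 49.6% and 8.49%. Lung positive members stood apart here: 47.0% of their 364 cells had a Ly6c2 UMI, against 82.8% to 94.4% of members in each of the other 7 groups, and 31.9% had a C1qa UMI, against 6.97% to 22.3%. These shares pool cells, and replicate 1 held 245 of the 364. Per library, Ly6c2 was in 38.8%, 30.8%, 79.1% and 68.0% of lung positive members of replicates 1 to 4 and in 74.6% to 93.4% of lung negative members, so that replicate 3 lay within the negative range. Ms4a6c was in 96.4% of them. By Ly6c2 the label of classical monocyte is therefore less well met in lung positive replicates 1, 2 and 4, and least in 1 and 2. The biotin results for lung describe cells chosen by the 6-gene rule. Fn1 (fibronectin) had a UMI in 98.4% of members and Lyz2 (lysozyme) in 99.7%. The B cells, 3686 cells with UMIs of Cd79a and Ms4a1 and none of Cd3e or the 3 rule genes, should lack these transcripts and served as a comparison for RNA free in the suspension. B cells may themselves express other genes compared below, such as Jund, which stood higher in them (862 to 2701 CPM in the negative libraries) than in members, and for such genes they do not measure free RNA. Their median depth was 2469.5 UMIs against 8218.5 in members, so these shares are not matched in depth. Among markers of other cells, the macrophage gene C1qa had a UMI in 10.8% of members, Ace of nonclassical monocytes in 3.43%, the B cell gene Cd79a in 3.57%, the T cell gene Cd3e in 1.56% and the dendritic cell gene Zbtb46 in 0.215%. The neutrophil gene S100a8 had a UMI in 98.9% of members and in 90.0% of B cells, so that its presence in members is not read as expression.

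The exclusion by Elane took out many cells, and not equally. Of 7389 cells with all 3 rule genes, 1817 were removed, 1761 of them with an Elane UMI. The loss ran from 28.4% to 61.3% across the 4 biotin-negative bone libraries and from 7.81% to 29.0% across those of lung. Elane UMIs also lay in B cells, in 17.4% to 18.6% of them in the negative libraries of replicate 3 and in 2.14% to 4.02% in those of replicate 1. The part of this background in the loss was not tested, and counts are therefore also given with the excluded cells kept.

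Members had 5521 to 13396.5 UMIs each at the median in the 27 libraries with 10 or more members, and 1977 to 3093 genes. Those libraries held 14 to 1007 members. Bone positive replicate 4, liver positive replicate 4 and brain positive replicates 2, 3 and 4 held fewer than 10 and entered no test of genes, so the biotin comparison in brain was not made at that minimum. Same-numbered libraries shared no kept barcode, while differently numbered ones shared up to 7. The highest share was 1.06% of the smaller library's barcodes, in a pair with only 1 in common.

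In brain and lung, monocytes were a smaller share of the tagged cells in every library than of the untagged cells in any. Shares per library are of all kept cells, as mean ± SD over 4 libraries. In lung, members were 8.73%, 11.7%, 16.6% and 9.12% of the negative cells of replicates 1 to 4, and 7.97%, 1.10%, 3.53% and 7.37% of the positive cells. This was 11.5% ± 3.60 against 4.99% ± 3.26, a difference of -6.54 percentage points (exact permutation test, two-sided, p = 0.0286, adjusted p = 0.0571 over 4 tissues). In brain, the negative libraries held 14.1%, 8.59%, 11.8% and 5.08% members and the positive libraries 2.90%, 0.889%, 1.29% and 0.299%. The brain means were 9.90% ± 3.94 and 1.34% ± 1.11, a difference of -8.56 points with the same exact p of 0.0286 and adjusted p of 0.0571. With 4 libraries against 4, 0.0286 is the smallest p the test can give, and neither difference passed after adjustment.

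Liver and bone gave the same direction with overlap. Liver positive libraries held 5.19% ± 5.73 (SD, n = 4) members and negative ones 17.2% ± 10.2, a difference of -12.0 points with an exact permutation p of 0.0571. Without liver negative replicate 1 the difference was -7.74 points. Bone gave 3.54% ± 3.0 (SD, n = 4) and 10.2% ± 8.09, a difference of -6.64 points with an exact permutation p of 0.2. Without bone negative replicate 1 it was -3.06 points. The share was lower in the positive library of every same-numbered pair, 4 of 4 in each tissue, for which the exact sign-flip permutation test of pairs cannot give less than p = 0.125. Whether the biotin difference itself differed between tissues was tested by permuting tissue labels, and the smallest p was 0.114, for liver against the others. A share depends on every other cell type collected, and fewer monocytes cannot be told apart from more of other cells.

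Among the negative libraries, no tissue's share passed the test against the other tissues. Liver was 6.63 points higher (exact permutation test of 4 against 12 libraries, p = 0.103, adjusted p = 0.413), a difference that fell to 2.39 without liver negative replicate 1 and was 10.6 without liver negative replicate 4. The corresponding p-values were 0.528 for bone, 0.473 for brain and 0.836 for lung. Within every tissue the libraries varied widely, from 5.13% to 29.9% in liver and from 2.54% to 20.9% in bone.

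**Figure D1:**
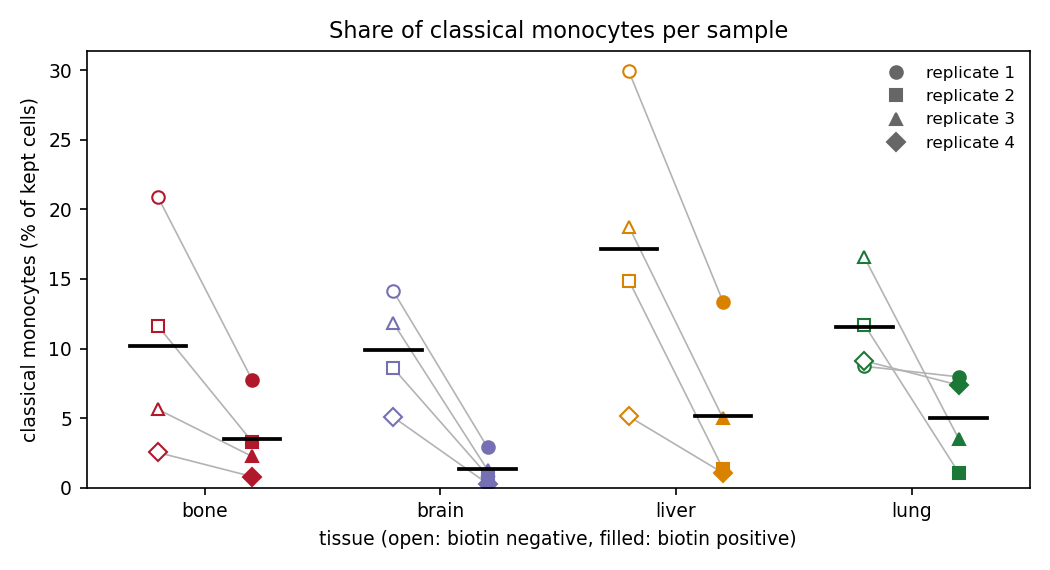
Classical monocytes as a percentage of all kept cells (vertical axis) in each of the 32 libraries, by tissue; open symbols are biotin negative, filled symbols biotin positive, the marker shape gives the replicate number, grey lines join libraries of the same number and black lines are group means. Every positive library lies below the negative library of the same number, and in brain and lung all positive libraries lie below all negative ones.

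Untagged monocytes of bone carried more cell-division transcripts, and fewer immediate early transcripts, than the mean of brain, liver and lung. Brain came nearest to bone in division transcripts and was not tested against it alone. Of 18 tested genes of the cell cycle list, 14 were higher in bone and none lower, with a median log2 difference of 2.85 against -0.01 over all 10878 genes tested. The gene test summed member counts per library and used edgeR's quasi-likelihood test, bone against the mean of the other 3 tissues. It called 449 genes (4.13%) at an adjusted p under 0.05, 357 higher (3.28%) and 92 lower (0.846%). The cell cycle list and all lists below were chosen with earlier results of these data known. Without bone negative replicate 4 the total was 265 and without replicate 3 it was 290, and the cell cycle count stayed between 13 and 15 of 18 in each of the leave-one-out fits.

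Mki67, the proliferation antigen Ki-67, was at 184, 187, 330 and 516 CPM (counts scaled to library size, with edgeR's TMM factors) in bone replicates 1 to 4. It was at 164, 53.3, 27.4 and 177 CPM in brain, 32.1, 6.11, 16.9 and 54.8 CPM in liver, and 19.0, 7.26, 13.8 and 16.8 CPM in lung. Every bone library lay above every library of the other tissues, with brain replicates 1 and 4 nearest. The log2 difference was 3.18 ± 0.40 (SE), a 9.03-fold higher level (adjusted p = 6.98e-06). Over all genes, 0.57% were separated in this way upward and 0.285% downward. Cdk1, the kinase that drives entry into mitosis, was at 29.9, 48.6, 73.3 and 91.4 CPM in bone and at most 26.2 CPM in any other negative library. Its log2 difference was 3.30 ± 0.41 (SE). Aurkb, the chromosome-segregation kinase, had 29.2, 39.3, 72.5 and 99.8 CPM in bone against 3.34 to 25.6 CPM elsewhere. Incenp, its partner in the same complex, Smc4 of the condensin complex, and Gmnn, the inhibitor of repeated replication, were likewise separated, at log2 differences of 1.99, 1.93 and 1.43. Top2a (topoisomerase II alpha) and Ccnb1 (cyclin B1) were called at 3.59 and 3.73. Of the replication genes, Pcna, Mcm3 and Mcm6 were not called: Pcna stood at a log2 difference of 0.13 (SE 0.15), Mcm3 at 1.02 (adjusted p = 0.177) and Mcm6 at 1.25 (adjusted p = 0.0561). With the replicate number as a block 16 of the 18 genes were called, Mcm6 (adjusted p = 0.0232) and the histone gene H2afz (adjusted p = 0.0223) being added, while Mcm3 (adjusted p = 0.0586) and Pcna were not.

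The promoters of 3 of these genes are printed to show which short elements their sequences hold, since mitotic genes are known to be controlled through the CCAAT box and the cell cycle homology region (CHR). Each is the 250 bases before the RefSeq start on GRCm38.p6, 5′ to 3′ on the gene's strand. Capitals mark TTTGAA (the CHR core) and CCAAT, on either strand, and in the Dusp1 promoter further below TGACGTCA, the cAMP response element.
Mki67, chr7:135716380-135716629, minus strand: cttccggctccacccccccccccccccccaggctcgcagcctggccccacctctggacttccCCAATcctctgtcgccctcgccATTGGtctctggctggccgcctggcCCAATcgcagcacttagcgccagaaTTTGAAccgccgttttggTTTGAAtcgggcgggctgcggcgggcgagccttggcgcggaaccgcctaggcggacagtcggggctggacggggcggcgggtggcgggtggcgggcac
Cdk1, chr10:69352913-69353162, minus strand: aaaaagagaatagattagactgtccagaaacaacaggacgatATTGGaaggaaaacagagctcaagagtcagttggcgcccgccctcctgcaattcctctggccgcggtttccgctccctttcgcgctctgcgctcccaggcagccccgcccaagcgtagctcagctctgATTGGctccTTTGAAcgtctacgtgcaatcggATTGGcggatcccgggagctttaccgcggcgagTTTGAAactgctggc
Top2a, chr11:99024190-99024439, minus strand: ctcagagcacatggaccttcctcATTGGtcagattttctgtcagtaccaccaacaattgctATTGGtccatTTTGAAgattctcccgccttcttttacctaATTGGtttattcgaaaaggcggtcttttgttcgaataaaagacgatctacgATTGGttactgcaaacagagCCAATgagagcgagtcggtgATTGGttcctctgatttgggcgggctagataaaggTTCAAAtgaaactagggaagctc
Each holds 2 matches to TTTGAA and 3 to 6 matches to CCAAT. The promoter of Ccnb1, which is not printed, holds 0 matches to TTTGAA and 2 to CCAAT. Of the 15 cell cycle list genes with a promoter in the table, 6 (40%) held TTTGAA and 13 (86.7%) held CCAAT, against 16.3% and 34.5% of all 27025 promoters of that length. A match is a string of letters and was not tested as a binding site.

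Division transcripts were also counted per cell. After each cell was thinned to 2000 UMIs, a UMI of Mki67 or Top2a was found in 14.3%, 17.9%, 32.4% and 39.3% of bone negative members in replicates 1 to 4. Bone thus averaged 26.0% ± 11.8 (SD, n = 4), and brain 11.7% ± 7.12. Brain replicates 1 and 4, at 17.8% and 17.9%, lay within the range of bone. Liver averaged 3.63% ± 0.991 and lung 2.13% ± 1.20. Unthinned shares were 39.4%, 21.0%, 9.56% and 7.73% in that order. In B cells of the negative libraries the thinned group means were 3.08% to 4.84%, in the range of liver monocytes and above lung monocytes. B cells can divide themselves, so that their share is not a measure of free RNA alone. The bone libraries with the highest shares, replicates 3 and 4, were also those that lost the largest share of cells to Elane. With the excluded cells kept, 17 of 18 cell cycle genes were called higher and the total rose to 925 genes. In B cells, the same contrast gave a log2 difference of 2.12 for Mki67 (adjusted p = 0.164) and 0.79 for Cdk1 (adjusted p = 0.968). The part of the free RNA in the monocyte difference was not tested.

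**Figure D2:**
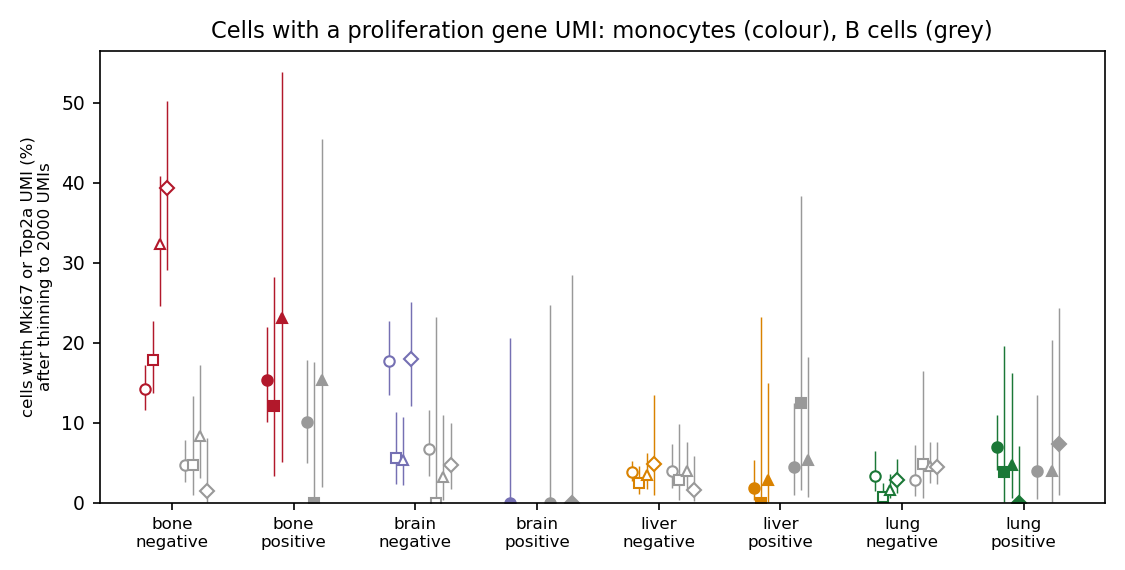
Share of cells with a UMI of Mki67 or Top2a after thinning each cell to 2000 UMIs (vertical axis, percent) per library; open and filled symbols are biotin-negative and biotin-positive monocytes, grey symbols B cells of the same libraries, and vertical lines 95% exact binomial intervals, which cover counting error only. Bone negative monocytes lie at 14.3% to 39.3%, brain negative ones at 5.38% to 17.9%, and liver and lung within the range of B cells.

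Immediate early expression was low in bone. Of 14 tested genes of the immediate early and heat shock list, 9 were lower and none higher, with a list median of -1.45. The 9 were Junb, Fos, Btg2, Dusp1, Zfp36, Atf3, Jun, Fosb and Egr1, transcription factors and feedback regulators that cells switch on within minutes of a stimulus. Leaving out a library gave 5 to 9 lower genes, with 5 without bone negative replicate 1 or 3 and 6 without replicate 4 or with robust dispersion estimation. With the replicate block 11 were lower, the heat shock genes Hspa1a and Hspa1b being added. Jund, a further AP-1 subunit, was at 346, 347, 264 and 303 CPM in bone and at 373 to 1053 CPM in the other negative libraries, with no overlap (log2 difference -1.32 ± 0.25, SE). Ier5 was at 113, 126, 105 and 113 CPM in bone and at 219 to 327 CPM elsewhere (adjusted p = 1.34e-05). Btg2, an antiproliferative immediate early gene, had 338, 229, 152 and 227 CPM in bone and 418 to 875 CPM elsewhere. Fos had 571, 990, 626 and 855 CPM in bone, while its levels were 2179 to 3075 CPM in brain, 959 to 3894 CPM in liver and 950 to 2894 CPM in lung. Replicate 1 of liver and of lung lay within the bone range for Fos. Ppp1r15a, which reverses the translation block of the stress response, was at 40.7 to 61.2 CPM in bone and at 68.9 to 169 CPM elsewhere. It was also lower in bone B cells, by a log2 difference of -1.27 (adjusted p = 0.0117). B cells gave -0.67 for Fos (adjusted p = 0.613).

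The promoter of Dusp1, the phosphatase that turns off MAP kinase signals (log2 difference -2.14, adjusted p = 0.00311), is shown for the cAMP response element it holds.
Dusp1, chr17:26508473-26508722, minus strand: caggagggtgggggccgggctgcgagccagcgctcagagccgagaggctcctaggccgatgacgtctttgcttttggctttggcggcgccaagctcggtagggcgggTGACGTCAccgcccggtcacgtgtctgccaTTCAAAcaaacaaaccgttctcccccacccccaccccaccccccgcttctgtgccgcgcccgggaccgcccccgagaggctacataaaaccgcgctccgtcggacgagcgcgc
TGACGTCA was found once here and in 2 of the 11 immediate early and heat shock genes with a promoter in the table (18.2%, the other being Btg2), against 1.62% of all promoters. Among other groups, bone was lower in 2 of 22 macrophage differentiation genes, Adgre1 among them. Single genes were lower in other lists. They were Nr4a1, which nonclassical monocytes need (1 of 13), and Cebpb (1 of 20 monocyte identity genes). Cd86 (1 of 13 antigen presentation genes) and the chemokine Ccl3 (1 of 21 inflammatory genes) were the others. With 0.846% of all genes lower in bone, nothing is read from such small counts. Ccl3 was at 48.2, 61.9, 40.1 and 45.7 CPM in bone and at 104 to 389 CPM elsewhere, and its log2 difference was -2.23 ± 0.48 (SE). Nr4a1 was at 107, 251, 160 and 80.6 CPM in bone and at 166 to 864 CPM elsewhere, so that the groups overlapped. The 4 globin genes, all the erythroid genes tested, were called higher in bone and rested on single cells: in bone negative replicate 2, 1 member held 3242 of 3251 Hbb-bs, 422 of 422 Hbb-bt, 1220 of 1224 Hba-a1 and 837 of 839 Hba-a2 UMIs.

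**Figure D3:**
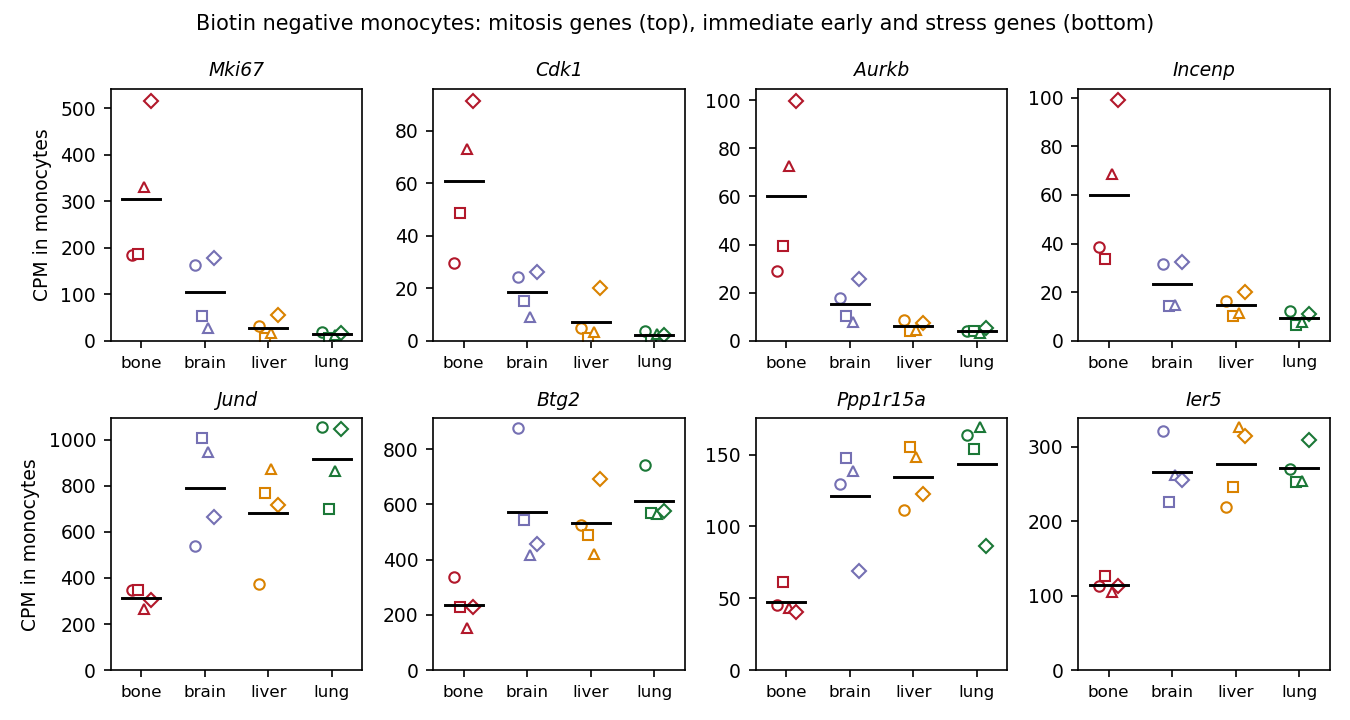
TMM-normalized CPM of selected genes in biotin-negative monocytes (vertical axis of each panel) by tissue, 1 point per library, with marker shape for the replicate number and black lines for group means. Mki67, Cdk1, Aurkb and Incenp (top) lie higher in all 4 bone libraries than in any other, and Jund, Btg2, Ppp1r15a and Ier5 (bottom) lower.

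Untagged lung monocytes carried more of several inflammatory transcripts than the mean of the other tissues, more of the vessel growth factor Vegfa, and fewer division transcripts. The test called 369 genes (3.39%), 193 higher (1.77%) and 176 lower (1.62%). It shares all 16 negative libraries with the bone comparison, which enters here as part of the other side, and the counts are therefore not independent of it. The call depended on 1 library: without lung negative replicate 1 1 gene was called, and 141 were called without replicate 2. With the replicate block 661 were called. Of 18 cell cycle genes, 13 were lower in lung (median -2.59 against 0.02 over all genes), with 0 called without lung negative replicate 1, where the list median was -2.56. Lung and liver nonetheless lay close together for Mki67, at 7.26 to 19.0 and 6.11 to 54.8 CPM.

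Of 21 inflammatory genes, 8 were higher in lung and none lower, with a median of 1.60: Cxcl3, Il1a, Nfkbia, Il1b, Cxcl1, Ptgs2, Cxcl2 and Nlrp3. They include neutrophil-attracting chemokines, interleukin 1, the prostaglandin synthase Ptgs2 and the inflammasome sensor Nlrp3. No filter on low counts gave 13, DESeq2 and robust dispersion estimation 3 each, any 2 of the 3 markers 4, and the fit without lung negative replicate 1 0. The fit without replicate 2 called 2, and the other fits that left out 1 library called 3 to 11, with 11 without liver negative replicate 2. Il1b was at 7112, 2813, 1351 and 1473 CPM in lung replicates 1 to 4 and at 84.8 to 1675 CPM in the other tissues. Cxcl3 was at 1028, 148, 87.8 and 845 CPM in lung and reached 517 CPM in liver negative replicate 2. Il1a was at 159, 23.9, 12.1 and 14.0 CPM in lung, with replicate 1 well above the rest and the others within reach of bone, which went up to 16.1 CPM. Replicate 1 was thus the highest lung library for all 3 of these cytokines.

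The genes that separated lung from all other negative libraries were fewer, 0.331% of all genes upward and 0.147% downward. Vegfa, the vascular growth factor induced by low oxygen, was at 174, 74.3, 87.4 and 104 CPM in lung and at 0.831 to 34.3 CPM elsewhere (log2 difference 2.46 ± 0.45, SE, adjusted p = 0.00684). Areg, the epidermal growth factor receptor ligand amphiregulin, was at 110, 28.2, 36.8 and 51.4 CPM and elsewhere at 0.365 to 23.8 CPM. Ccrl2, a receptor that presents the attractant chemerin, was at 428, 421, 436 and 261 CPM against 39.1 to 236 CPM elsewhere. Fth1, the ferritin heavy chain, was at 12998, 11802, 9446 and 9114 CPM against 3217 to 8537 CPM elsewhere. Tiparp, a target of the aryl hydrocarbon receptor, Nr4a2 and Malt1 were also higher, at log2 differences of 1.46, 1.37 and 1.08. Of these, Nr4a2 was called in B cells too, at 2.74 (adjusted p = 0.0152). Vegfa had a B cell log2 difference of 2.47 that was not called (adjusted p = 0.608). Txnip and Usp1 were lower in lung, at -1.65 and -0.84. Txnip, an inhibitor of thioredoxin and of glucose uptake, was at 101, 56.8, 60.2 and 47.9 CPM in lung.

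Of the hypoxia and glycolysis list, 3 of 18 genes were higher in lung (Vegfa, Hilpda and Bnip3). Of 22 macrophage differentiation genes, 2 were higher in lung. In other lists single genes were higher, 1 of 20 identity genes (Cd14), 1 of 15 interferon genes (Gbp2), 1 of 16 trafficking genes (Cd44), 1 of 13 nonclassical genes (Dusp16) and 1 of 14 immediate early genes (Fosb). With 1.77% of all genes higher, nothing is read from such small counts. The platelet list had both tested genes higher, Pf4 and Ppbp. Its summed level was 22.0 to 1127 CPM (without TMM factors) in lung negative members, where Gp9 was at 0, Gp1bb had 1 UMI and Itga2b 2 UMIs in 1185 members. The part of platelet RNA in this result was not tested.

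Brain and liver gave few calls against the mean of the other tissues. The brain comparison called 3 genes (0.0276%), Prss34, Mcpt8 and Ms4a2, which are basophil and mast cell genes, and all 3 rested on 1 cell. That member of brain negative replicate 4 held 609 of the library's 610 Mcpt8 UMIs, 992 of 993 Prss34 UMIs and 34 of 34 Ms4a2 UMIs, and without that library 0 genes were called. DESeq2 also called 0, and 333 genes had an unadjusted p under 0.05 in edgeR. The liver comparison called 1 gene (0.00919%), Spp1 (osteopontin, a secreted matrix protein of tumour-associated macrophages). Spp1 was at 11.0, 2057, 1406 and 698 CPM in liver replicates 1 to 4 and at 12.5 to 208 CPM in the other negative libraries. Liver replicate 1 lay below every library of the other tissues. Without liver negative replicate 1 the liver comparison called 17 genes, without replicate 2 it called 0, and without brain or lung negative replicate 1 it called 2. Without the filter on low counts brain called 9 genes and liver 26, and with the cells excluded by the rule kept brain called 64 and liver 0.

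Tagged monocytes carried more macrophage transcripts than untagged ones. Averaged over bone, liver and lung, 14 of 22 macrophage differentiation genes were higher in biotin-positive members and none lower, with a median log2 difference of 1.52 against -0.05 over all genes. The list of Kupffer and marrow macrophage genes moved with it in bone and liver: its summed level (without TMM factors) was 0 to 54.6 CPM in bone negative and 16.0 to 358 CPM in bone positive members, 0 to 63.0 and 38.7 to 493 CPM in liver, and 0 to 56.5 and 0 to 46.3 CPM in lung. Of its 5 genes 1, Vcam1, was called in the average, none was at 0 throughout the positive members of bone, liver or lung, and the part of these cells in the result was not tested. Leaving out 1 library gave 9 to 15 higher macrophage differentiation genes, with 9 without liver positive replicate 3, and taking libraries of at least 5 members gave 2. Among them were C1qa, C1qb and C1qc (complement C1q), Spp1, the lysosomal genes Ctsb, Ctsd, Lgmn and Cd63, the lipid carrier Fabp5, the heme-degrading Hmox1, Ms4a7, the mannose receptor Mrc1 and the apoptotic-cell receptor Axl. The averaged test called 232 genes (2.13%), 145 higher (1.33%) and 87 lower (0.8%), and with the replicate number as a block 595. The split moved with the scaling, to 181 higher and 19 lower with RLE factors and 260 higher and 50 lower with DESeq2. Without liver positive replicate 1 it turned over, to 342 higher and 590 lower.

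The macrophage calls were not made once members with C1q RNA were left out. A C1q UMI was present in 1085 members (19.5%), in 40.4% of lung positive and 19.8% of lung negative members. Without these members, an alternative chosen after the data were seen, 0 genes were called over tissues and 0 of 19 tested macrophage genes, whose median was 0.75. The C1q genes belong to that list, so this alternative takes out cells by genes the comparison is about. The log2 differences of several leading genes stayed large without these members, at 3.52 ± 0.81 (SE) for Pf4 and 3.12 ± 0.67 for Spp1 (adjusted p = 0.217 for both), 2.74 ± 0.72 for Cd36 and 2.45 ± 0.75 for Mrc1. That of Mmp12 was 1.31 ± 1.67. C1q RNA was also found in B cells, and more in replicate 2 than in the others: 42.6% to 46.8% of members of the negative libraries of replicate 2 had a C1q UMI and 9.33% to 15% of their B cells a C1qa UMI, against 4.49% to 20.5% and 0.699% to 2.77% in the other negative libraries. In B cells the averaged biotin contrast gave log2 differences of 3.95 for C1qa (adjusted p = 0.00601), 4.17 for C1qc and 3.90 for Lpl, all called. Genes not called in B cells ranged from 3.03 for Spp1 (adjusted p = 0.325), near its 3.36 in monocytes, and 1.94 for Mrc1 to 0.74 for Pf4, 0.17 for Cd36 and 0.06 for Abca1. The part of free RNA in the monocyte differences was not tested.

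Pf4, a chemokine of platelets and of some macrophages, was at 14.9, 6.84, 0 and 0.831 CPM in bone negative replicates 1 to 4 and at 422, 352 and 0 CPM in bone positive replicates 1 to 3. In liver it was at 17.6, 570, 183 and 112 CPM in the negative and 568, 1570 and 2890 CPM in the positive libraries. In lung it was at 1168, 46.5, 23.8 and 505 CPM in the negative and 8118, 6687, 766 and 2683 CPM in the positive libraries. It was higher in the positive library of 9 of 10 same-numbered pairs, bone replicate 3 having no count in either. The averaged log2 difference was 3.85 ± 0.65 (SE, adjusted p = 0.00405). The summed level of the platelet list (without TMM factors) was 22.0 to 1127 CPM in lung negative and 976 to 9206 CPM in lung positive members. Ppbp, a platelet chemokine, had 4139 UMIs in 115 of 364 lung positive members and 461 UMIs in 22 of 1185 lung negative ones. Itga2b, a platelet integrin, had 3 UMIs in the lung positive group. Gp9 and Gp1bb, glycoproteins that define platelets, were at 0 in the positive libraries tested, as in the negative ones except for 1 Gp1bb UMI in lung. The part of platelet RNA in the Pf4 difference was not tested. Spp1 was at 373, 736 and 43.5 CPM in bone positive and 14.96 to 31.5 CPM in bone negative members. In liver positive replicates 1 to 3 it was at 152, 4907 and 13137 CPM, against 11.0, 2057, 1406 and 698 CPM in liver negative replicates 1 to 4. Liver positive replicate 1 thus lay below liver negative replicates 2, 3 and 4. B cells of liver positive replicate 1 held 2962 CPM of Spp1, above its monocytes, and those of replicates 2 and 3 held 7.63 and 18.6 CPM. The averaged Spp1 difference was 3.36 ± 0.57 (SE).

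Cd36, Abca1 and Lpl, which act on fatty acids and cholesterol, were higher as well. Cd36, a fatty acid scavenger receptor, was at 44.9, 85.7 and 0 CPM in bone positive, 13.4, 144 and 237 CPM in liver positive and 154, 577, 20.9 and 0 CPM in lung positive members, against 1.17 to 33.5 CPM in the negative libraries of those tissues. In B cells of lung positive replicates 1, 3 and 4 it was at 384, 114 and 27.0 CPM, above the monocytes of the same libraries. Abca1, which exports cholesterol, and Lpl, the lipoprotein lipase, were each called with a log2 difference of 2.51. Mmp12, the macrophage elastase, had an averaged difference of 4.36 ± 0.82 (SE). Bone positive replicate 3 stood apart, since Pf4, Cd36, Mmp12 and C1qa were all at 0 there, in 14 members. Vcam1, Mrc1 and the monocyte attractant Ccl7 were also among the called genes.

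Of 20 monocyte identity genes, 2 were lower in tagged members and none higher, with a list median of -0.39. Over all genes, 0.8% were lower in this comparison. The 2 were Hp (haptoglobin) and Chil3 (a secreted chitinase-like protein). Both differences were small, and Hp was called in 8 and Chil3 in 9 of 22 fits that left out 1 library. Hp was at 1454, 1340, 1400 and 1684 CPM in lung negative and 352, 467, 1339 and 915 CPM in lung positive members, and its averaged log2 difference was -0.67 ± 0.17 (SE, adjusted p = 0.0384). Chil3 gave -0.57 and Mcemp1, a mast cell and monocyte membrane gene, -0.61. In B cells the same contrast gave -0.29 for Hp, 0.79 for Chil3 and 0.28 for Mcemp1, none of them called. Pi16, a peptidase inhibitor, and Napsa, an aspartic protease, gave -0.81 and -0.74. Ly6c2 gave -0.70 ± 0.26 (SE) and was not called (adjusted p = 0.145). The inflammatory list had 2 of 21 genes higher (Il1rn and Ccl7), trafficking 2 of 16 (Cd9 and Itgb1), glycolysis and hypoxia 2 of 18 (Bnip3 and Pgk1) and the nonclassical list 1 of 13 (Fabp4). With 1.33% of all genes higher in this comparison, nothing is read from these small counts.

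**Figure D4:**
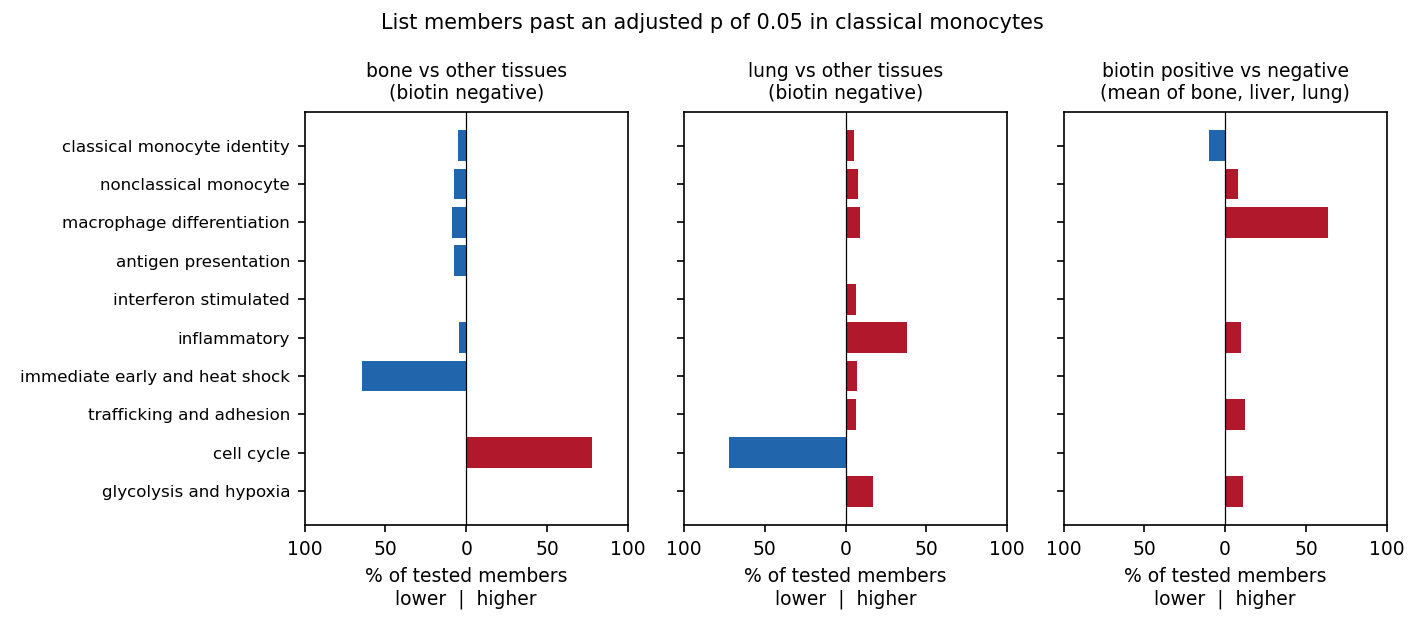
Percentage of the tested genes of each list that were called higher (to the right) or lower (to the left) in each comparison. The cell cycle list is called in opposite directions in bone and lung, 14 of 18 higher and 13 of 18 lower, and the macrophage differentiation list in the averaged biotin comparison, 14 of 22 higher.

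In lung alone, tagged monocytes carried more Folr2, Il10, Cd63 and Cd9 and less Pi16 and Napsa. The test called 182 genes (1.67%), 151 higher (1.39%) and 31 lower (0.285%), and 606 with the replicate block, of which 173 were among the 182. Without lung positive replicate 1 the count was 0, without negative replicates 2, 3 and 4 it was 65, 1 and 15, and without positive replicates 3 and 4 it was 486 and 301. With the C1q members left out it was 49, and with the Elane cells kept 73. The alveolar macrophage list, whose summed level was 1.05 to 85.0 CPM in lung negative and 39.9 to 617 CPM in lung positive members (without TMM factors), had 3 of 7 tested genes higher. No gene of that list was at 0 throughout the lung positive members, and its part in the result was not tested.

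Folr2, a folate receptor of perivascular macrophages, was at 1.12, 0.854, 0 and 1.56 CPM in lung negative replicates 1 to 4 and at 67.3, 105, 2.98 and 25.1 CPM in lung positive ones. All positive libraries were above all negative ones (log2 difference 5.79 ± 0.92, SE, adjusted p = 0.00632), as were those of 2.14% of all genes, while 4.5% were separated downward. Il10, the anti-inflammatory cytokine, was at 8.39, 9.82, 3.76 and 4.29 CPM in negative and 181, 32.9, 62.6 and 14.7 CPM in positive members (3.62 ± 0.68, SE). Without lung positive replicate 1 the Il10 difference was 2.44 and not called (adjusted p = 0.301). Over the 8 fits that left out 1 lung library, Folr2 and Pi16 were called in 6, Il10 in 5, Cd63 in 4, Cd9 in 3 and Napsa in 2. Mmp12 was at 1.12, 2.99, 0 and 5.46 CPM in negative and 134, 15.3, 68.6 and 39.8 CPM in positive members. Folr2, Il10 and Mmp12 did not pass the filter on low counts in B cells and were not tested there. Pdpn (podoplanin) was separated as well, at 3.21.

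Cd63, a lysosomal tetraspanin, was at 29.6, 23.1, 18.0 and 28.8 CPM in negative and 237, 309, 86.5 and 83.7 CPM in positive members. Cd9, a tetraspanin of the surface, was at 73.8, 63.2, 28.8 and 72.1 CPM in negative and 379, 344, 212 and 209 CPM in positive members. Both were also higher in lung positive B cells, at log2 differences of 4.22 and 3.93 against 2.88 and 2.28 in monocytes. In B cells of lung positive replicates 1, 3 and 4, Cd9 was at 1487, 803 and 371 CPM, above the monocytes of each. Cd63 was at 144, 132 and 337 CPM there, above the monocytes of replicates 3 and 4. Ms4a7, a macrophage membrane gene, showed the same, at 5.03 in B cells against 2.26 in monocytes. For these 3 genes the B cell difference was thus the larger in size, and the difference between cell types was not tested. The interferon-induced chemokines Cxcl9 and Cxcl10 were the 2 of 15 interferon genes called, both higher. With 1.39% of all genes higher in this comparison, nothing is read from that count. Cxcl10 was at 24.0, 38.8, 6.69 and 16.4 CPM in negative and 133, 37.3, 510 and 327 CPM in positive members, with overlap at replicate 2.

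Spp1, Pf4 and C1qa, which were called in the average over tissues, did not pass in lung alone in the fit without the replicate block. Spp1 was at 102, 117, 69.8 and 208 CPM in negative and 2906, 1048, 856 and 1503 CPM in positive members (3.67 ± 0.97, SE, adjusted p = 0.0501). C1qa was at 41.9, 57.2, 25.9 and 51.8 CPM in negative and 457, 528, 65.6 and 486 CPM in positive members (3.13 ± 0.83, SE, adjusted p = 0.0501). With the replicate block Spp1, Pf4 and C1qa were called. Among B cells of the 3 lung positive libraries with enough of them, replicates 1, 3 and 4, Spp1 was at 456, 114 and 162 CPM and C1qa at 37, 0 and 870 CPM. Spp1 was below its level in the monocytes of the same libraries, while C1qa in replicate 4 was above it.

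At 2000 UMIs per cell, a Pf4 UMI was present in 38.3% of lung positive members on average and in 6.40% of negative ones, against 1.89% and 1.09% of B cells. The unthinned shares were 44.4% and 10.7% of members and 4.02% and 1.90% of B cells. For Spp1 the member shares were 35.8% and 6.09% and the B cell shares 8.50% and 2.30%, and for C1qa 19.1% and 4.10% against 2.54% and 0.872%. Member shares of Pf4, Spp1 and C1qa in lung positive libraries were thus above those of B cells, which were shallower before thinning.

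Pi16 was at 82.8, 77.7, 86.9 and 65.9 CPM in lung negative members and at 26.3, 21.9, 53.7 and 27.2 CPM in positive ones, with no overlap (log2 difference -1.36 ± 0.26, SE, adjusted p = 0.0118). Napsa was at 656, 549, 507 and 660 CPM against 146, 186, 346 and 421 CPM (-1.13 ± 0.27, SE). Adgre5, the adhesion receptor CD97, and Myo1f, an unconventional myosin of leukocytes, gave -0.91 and -0.80. Myo1f was called in the opposite direction in B cells, at 1.62 (adjusted p = 0.037). Ly6c2 was at 787, 637, 1052 and 1175 CPM in negative and 182, 182, 665 and 806 CPM in positive members and was not called (adjusted p = 0.221). The groups overlapped, but its level was lower in the positive library of every same-numbered pair, a pairing the main test does not use. Ms4a6c gave -0.44 and was not called (adjusted p = 0.207).

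**Figure D5:**
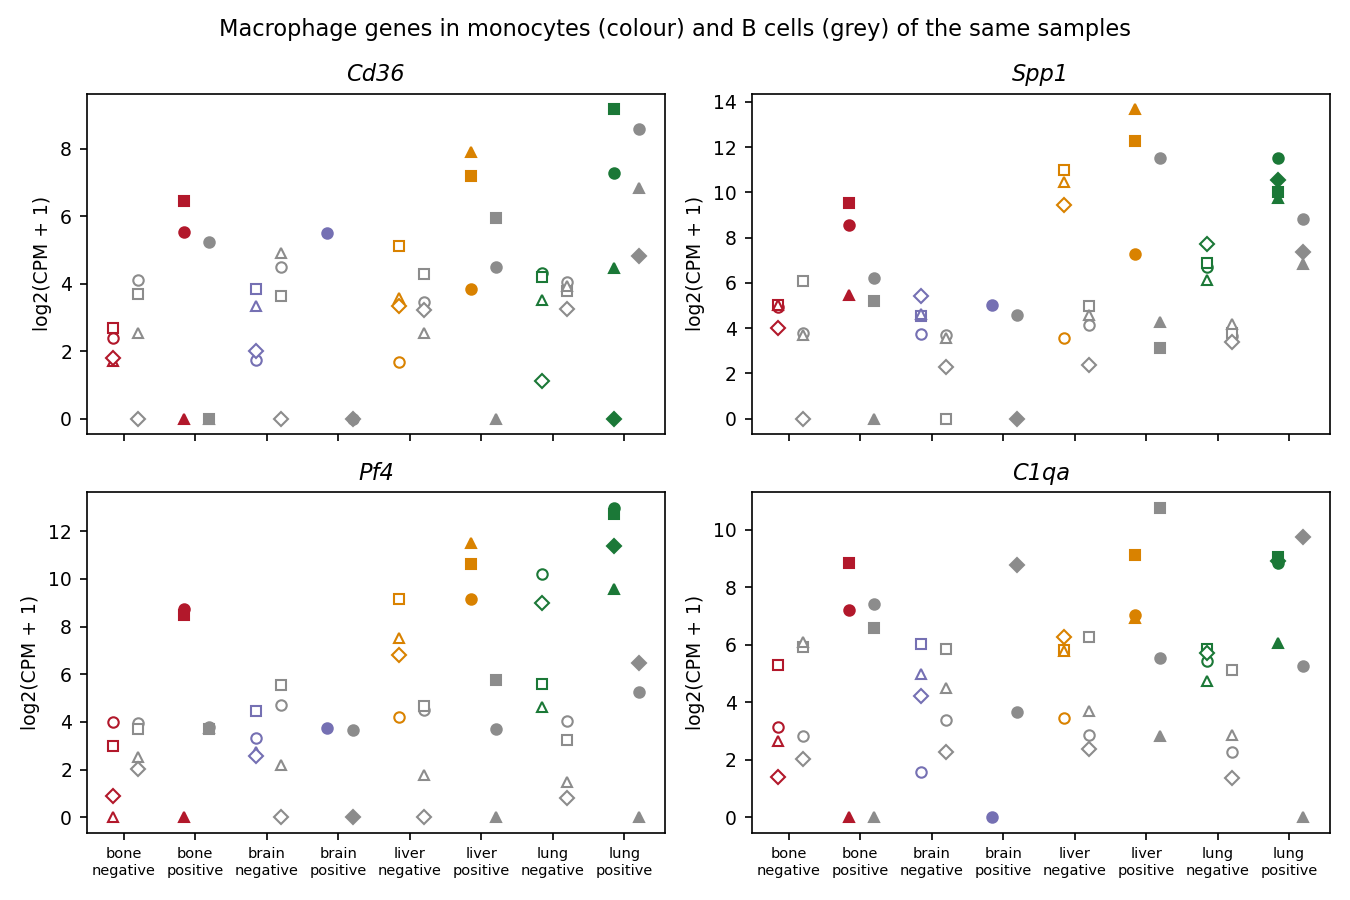
Level of selected genes as log2(CPM + 1) (vertical axis of each panel) by tissue and sort; open symbols are biotin-negative and filled symbols biotin-positive monocyte libraries, grey symbols B cells of the same libraries, marker shape the replicate number. Spp1 in lung is higher in all 4 positive than in all 4 negative monocyte libraries, and bone positive replicate 3 is at 0 for Cd36, Pf4 and C1qa; C1qa in B cells is above the monocytes in 9 of the 26 libraries with both, among them bone positive replicate 1, liver positive replicate 2 and lung positive replicate 4, and Cd36 in B cells is above them in lung positive replicates 1, 3 and 4.

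Bone and liver gave few or no genes on their own. Bone called 12 genes (0.11%), all higher, and 4 were stromal matrix genes (Dcn, Col1a1, Col1a2 and Col3a1). In bone positive replicate 1, 271 of 272 Dcn UMIs and 115 of 115 Col1a2 UMIs came from 1 member, and without that library 0 genes were called. Leaving out a bone negative library gave 2 to 6 genes, DESeq2 gave 1, and leaving out the C1q members gave 0. Liver called 0 genes with edgeR, where 560 had an unadjusted p under 0.05, and 3 with DESeq2. Without liver positive replicate 1 it called 214, and without liver positive replicate 3 it called 2. A test of whether the biotin difference differed among bone, liver and lung called 0 genes in edgeR, with 360 at an unadjusted p under 0.05, and 4 with the replicate block. The averaged count of 232 itself was 64 without bone positive replicate 1, 100 without bone positive replicate 2, 104 without liver positive replicate 2, 57 without liver positive replicate 3 and 93 without lung positive replicate 1. It was 932 without liver positive replicate 1 and 412 without lung positive replicate 3. Leaving out bone negative replicate 3 or 4, liver negative replicate 1, or lung negative replicate 3 or 4 gave 138 to 149, and with libraries of at least 5 members it was 16.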

How the data were processed

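Single-cell 3′ RNA libraries with CellPlex tags were analysed for 32 samples, 4 in each of 8 groups. The deposited values are UMI counts per gene and cell, as raw whole numbers, written by Cell Ranger 6.1.2 per the file headers. The submitters' processing notes also name mm10 and Seurat, with no role given. How introns were counted, and with which annotation, is not stated there. The pooled bone library labelled IIA was not used.

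Cells were kept from 500 UMIs and 200 detected genes upward, with mitochondrial UMIs up to 15%. Members and gene lists were chosen with earlier results of these data known. Member counts were summed per sample (10 or more members) and tested with edgeR 4.0.16 in R 4.3.3: filterByExpr (minimum count 10), TMM factors, a quasi-likelihood fit over all groups, Benjamini-Hochberg adjustment over 10878 genes and a threshold of 0.05. A difference of 1 tissue is against the mean of the other 3, and CPM values carry the TMM factors. Shares were compared with exact permutation tests, two-sided, adjusted over 4. Named genes are up to 12 per direction by log2 difference among called genes with separated groups (for the average: the same direction in each tissue) and a mean of at least 50 CPM, plus list genes. Predicted genes and mitochondrial, ribosomal and immunoglobulin genes were left out. The genes described were picked from these with their values in view. Some named genes are not reported here.

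The B cell rule first required no S100a8 UMI, which left too few cells, so that requirement was dropped after the data were seen. For thinned shares, each cell was reduced to 2000 UMIs and shallower cells left out. No doublet caller was run; instead, cells with lymphoid or erythroid UMIs (304 members) were left out as an alternative. Other alternatives were DESeq2 1.42.0, RLE factors, no filter, other minimum member numbers, other marker and mitochondrial limits, each sample left out, and a replicate block. The labels do not say what a replicate number marks. In the biotin comparisons, deviations from the group means over 3940 genes correlated at 0.273 to 0.756 in all 10 same-numbered pairs (median 0.427). Differently numbered pairs had a median of -0.155. The main biotin tests of genes nonetheless ignore this pairing, and their counts and adjusted p-values are those of a fit without the block. Blocked counts are given where they changed a call.

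Promoter sequences are from RefSeq on GRCm38.p6. Intervals drawn for shares of cells are 95% exact (Clopper-Pearson) binomial intervals and cover counting error only.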

Additional observations from a re-analysis of the deposited data

Results flagged for a closer look

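Of 236 groups of 4 libraries checked with Dixon's test, 20 held a library whose value stood apart from the other 3, where chance alone flags about 1 in 20. The values are TMM-normalized CPM in members. Replicate 1 stood apart upward in several tissues. In bone negative members it gave 284.3 for Txnip (others 167 to 178). In liver negative members it gave 414.6 for Txnip (others 116 to 141) and 472.4 for Mcemp1 (others 358 to 373). In lung negative members it gave 740.9 for Btg2 (others 563 to 576) and 158.8 for Il1a (others 12.1 to 23.9), and in brain negative members 389.3 for Ccl3 (others 172 to 198).

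Replicate 2 stood apart in genes of macrophages and stress. It gave 2254 for Dusp1 in brain negative members (others 956 to 1113) and 21.87 for Mmp12 in liver negative members (others 0 to 0.730). In bone negative members it gave 38.66 for C1qa (others 1.66 to 7.79) and 25.32 for C1qc (others 3.02 to 4.71). Replicate 3 of lung positive gave 53.69 for Pi16 (others 21.9 to 27.2) and 65.61 for C1qa (others 457 to 528). Replicate 4 gave 260.7 for Ccrl2 in lung negative members (others 421 to 436) and 14.96 for Spp1 in bone negative members (others 29.6 to 31.5).

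The basophil genes stood apart in brain negative replicate 4, at 605.5 for Prss34 (others 0), 371.9 for Mcpt8 (others 0 to 1.14) and 20.73 for Ms4a2 (others 0 to 1.57), and 1 member held nearly all of those UMIs. Prss34 at 0.6494 and Ms4a2 at 0.1624 in bone negative replicate 1, and Ms4a2 at 0.4963 in liver negative replicate 3, stood apart from libraries that were all at 0.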

How the results depend on the processing

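The biotin differences in share kept their direction in every alternative tried, with leave-one-out ranges of -9.19 to -3.06 points in bone, -10.2 to -7.16 in brain, -16.0 to -7.74 in liver and -7.53 to -4.86 in lung. The difference of lung from the other tissues ranged from -2.56 to 0.701 and changed sign without liver negative replicate 1 (0.701) and without lung negative replicate 1 (0.0441). Counts of called genes moved more. DESeq2 called 1 in the bone biotin comparison, 3 in liver, 0 for brain against the other tissues and 10 for liver against them. Without the filter on low counts the biotin counts were 41 in bone, 2 in liver and 307 in lung, and the tissue counts 9 for brain and 26 for liver. With at least 5 members per sample the bone biotin count was 4 and the averaged one 16. With at least 20 they were 4 and 136, and the brain count was 1. Any 2 of the 3 markers gave 54, 22, 602 and 1303 for bone, liver, lung and the average, and 5 and 0 for brain and liver against other tissues. Leaving out cells with lymphoid or erythroid UMIs gave 1 for bone biotin. Keeping the excluded cells, chosen after seeing the data like the next pair of settings, gave 0 for bone and 73 for lung biotin, and 925, 64, 0 and 926 for bone, brain, liver and lung against the other tissues. Robust dispersion gave 6 and 2 for bone and liver biotin and 0 for liver against the other tissues. Without members holding C1q UMIs, the counts were 0 for bone, 49 for lung and 0 for the averaged biotin comparison, and 0 for liver against the other tissues. The brain biotin comparison called 0 genes at 5 members and 32 with any 2 markers. The causes were not tested.

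With the replicate block, liver biotin called 3, lung 606, the average 595 and the test among tissues 4, and the bone biotin count of 12 became 17. Between negative libraries of different tissues, 22 of 24 same-numbered pairs had a deviation correlation over 0.1 and the lowest was -0.0859 (median 0.379, against -0.139 for differently numbered pairs). The 2 pairs under 0.1 both held lung negative replicate 1, with brain (0.00927) and with liver (-0.0859). The main fit there is the one without the block, and it leaves this correlation out. The permutation tests of shares between tissues leave it out too. The block gave 624 for bone, 3 for brain, 2 for liver and 661 for lung.

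Leaving out 1 library gave 0 to 17 for bone biotin, 0 to 214 for liver, 0 to 486 for lung, 57 to 932 for the average and 0 to 0 for the test among tissues. Against other tissues it gave 265 to 500 for bone, 0 to 3 for brain, 0 to 17 for liver and 1 to 436 for lung. Of the gene values under other settings, 730 stayed on the same side of the threshold, called or not, 67 lost and 21 gained a call, leaving out 2 that DESeq2 gave no adjusted p; under leave-one-out 897 stayed, 136 lost and 8 gained one, and Prss34 changed sign without brain negative replicate 4 (-2.84, with a highest leave-one-out value of 9.0025). RLE factors and DESeq2 moved the median of all genes by at most 0.0998. Positive libraries with few members limit precision.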
